A study of Homo sapiens with 8 samples.

Results

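Imprinted control regions were examined in the U2OS maps of methylated DNA and of ORCA binding. The regions were 9 stretches of the hg19 genome, at H19, KCNQ1OT1, SNRPN, MEG3, GNAS, PEG3, PEG10, MEST and PLAGL1, taken by fixed positions. No measured value entered that rule, but the regions and lists were chosen with earlier results of these data known. They were chr11:2016000-2025000 (H19), chr11:2719000-2723000 (KCNQ1OT1), chr15:25199000-25202000 (SNRPN), chr14:101275000-101295000 (MEG3), chr20:57414000-57471000 (GNAS), chr19:57348000-57354000 (PEG3), chr7:94285000-94288000 (PEG10), chr7:130130000-130134000 (MEST) and chr6:144328000-144330000 (PLAGL1). No annotation of hg19 was used here, so that exons and introns under the peaks are not given. A peak was assigned to a region when at least 1 bp of it lay inside the region or within 10 kb of it. By this rule 34 of 74497 peaks of methylated DNA, 3 of 10666 early, 3 of 10341 mid and 0 of 1328 late ORCA peaks belonged to the 9 regions. The samples were U2OS cells, an established human osteosarcoma line, in early, mid or late G1 phase for chromatin immunoprecipitation of ORCA, and U2OS cells with no stage given for immunoprecipitation of methylated DNA (MeDIP). ORCA, also named LRWD1, is a partner of the origin recognition complex, the assembly that marks places where replication can start. No treatment or genetic change was named for these samples, and the way the cells were held at each stage is not given in the sources used here. Each of the 4 groups had 1 sample and 1 deposited peak list, so that nothing below could be set against a spread between replicates. The 4 inputs were not analysed here, and read depth is not given in the sources used here.

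Imprinted genes are expressed from the copy inherited from only one parent. The choice is kept by control regions in which the DNA of the maternal or of the paternal copy carries methylated CpG while the other copy does not. At most such regions the mark is set in the egg and covers the promoter of a gene or of a noncoding RNA that is then active from the paternal copy. At a few, among them those of H19 and of the DLK1 and MEG3 domain, it is set in sperm and lies between genes. A peak list does not tell the copies apart: a MeDIP peak shows that methylated fragments were recovered, and not from which copy. The score of a peak is the caller's own value, was at least 50 in every list, and is used here only to order the peaks of one list.

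CpG is the dinucleotide whose methylation MeDIP recovers, and the promoters of the imprinted genes differ widely in how much of it they hold. RefSeq (GRCh38.p14) gave 24 promoter windows for 6 of the 9 genes, each running from 250 bases before to 50 bases after a transcript start. KCNQ1OT1, PEG3 and PEG10 had no entry. The window richest in CpG, a choice made after the letters were seen, is shown for each of the 6 genes, 5′ to 3′ on the gene's strand, with every CG in capitals. These windows are in another genome build than the peaks and were not placed on them.
SNRPN: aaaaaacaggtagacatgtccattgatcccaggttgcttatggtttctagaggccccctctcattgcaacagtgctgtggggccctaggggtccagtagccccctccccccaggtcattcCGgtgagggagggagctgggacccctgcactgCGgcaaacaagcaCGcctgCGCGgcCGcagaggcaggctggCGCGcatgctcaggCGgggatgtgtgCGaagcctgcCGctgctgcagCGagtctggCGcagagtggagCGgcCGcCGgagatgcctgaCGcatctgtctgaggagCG
PLAGL1: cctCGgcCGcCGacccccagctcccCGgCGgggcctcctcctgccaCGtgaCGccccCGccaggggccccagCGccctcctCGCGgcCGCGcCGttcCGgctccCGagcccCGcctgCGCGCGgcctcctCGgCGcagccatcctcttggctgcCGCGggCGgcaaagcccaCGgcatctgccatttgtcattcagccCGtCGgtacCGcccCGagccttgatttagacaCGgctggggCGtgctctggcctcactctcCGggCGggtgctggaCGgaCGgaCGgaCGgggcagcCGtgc
MEST: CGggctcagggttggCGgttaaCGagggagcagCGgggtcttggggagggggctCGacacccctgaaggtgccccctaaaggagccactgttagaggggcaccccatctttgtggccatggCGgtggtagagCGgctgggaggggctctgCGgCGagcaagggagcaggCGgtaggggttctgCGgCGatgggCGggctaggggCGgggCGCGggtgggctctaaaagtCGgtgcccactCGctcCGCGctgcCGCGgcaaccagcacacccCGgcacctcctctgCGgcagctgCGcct
GNAS: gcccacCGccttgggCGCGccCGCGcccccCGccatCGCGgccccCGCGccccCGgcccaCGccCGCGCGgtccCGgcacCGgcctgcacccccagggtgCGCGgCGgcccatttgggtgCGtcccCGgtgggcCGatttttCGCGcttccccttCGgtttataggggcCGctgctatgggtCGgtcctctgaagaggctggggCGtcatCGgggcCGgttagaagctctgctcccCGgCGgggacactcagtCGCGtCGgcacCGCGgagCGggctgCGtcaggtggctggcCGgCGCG
MEG3: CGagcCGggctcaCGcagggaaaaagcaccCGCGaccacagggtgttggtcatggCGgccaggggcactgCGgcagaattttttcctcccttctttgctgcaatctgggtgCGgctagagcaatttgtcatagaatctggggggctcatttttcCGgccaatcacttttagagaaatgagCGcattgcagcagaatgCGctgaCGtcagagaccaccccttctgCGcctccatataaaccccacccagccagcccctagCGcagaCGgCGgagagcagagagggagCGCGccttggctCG
H19: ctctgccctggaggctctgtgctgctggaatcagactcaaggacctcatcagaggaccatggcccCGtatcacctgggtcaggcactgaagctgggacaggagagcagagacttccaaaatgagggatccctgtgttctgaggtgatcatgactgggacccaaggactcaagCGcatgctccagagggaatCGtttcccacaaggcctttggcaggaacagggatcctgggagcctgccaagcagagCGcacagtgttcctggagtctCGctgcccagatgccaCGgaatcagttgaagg

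The SNRPN window (chr15:24954737-24955036, plus strand) held 18 CG and the PLAGL1 window (chr6:144008210-144008509, minus strand) 39. The MEST window (chr7:130491835-130492134, plus strand) held 25, the GNAS window (chr20:58888930-58889229, plus strand) 43 and the MEG3 window (chr14:100825858-100826157, plus strand) 19. The only H19 window (chr11:2001217-2001516, minus strand) held 6. Which H19 transcript starts there was not checked, so it may not be the main promoter of the gene. Over all 35116 promoter windows of this length the median was 14 CG, with quartiles of 4 and 28. At least as many CG as in these GNAS and PLAGL1 windows were held by 4.98% and 8.71% of all windows, and the H19 window was below the median. These are the richest windows of their genes: the 6 GNAS windows ran from 10 to 43 CG and the 5 PLAGL1 windows from 2 to 39. The hexamer TGCCGC, the sequence that the zinc finger protein ZFP57 binds when its CpG is methylated, was searched on both strands and always contains a CG. It occurred in 16.7% of all windows and in 11 of the 24 windows of the imprinted genes. Some of these overlap each other, so that the same site can count again. Of the 6 windows shown, 4 held it, a count that the choice of windows rich in CpG favours. It occurred 3 times in MEST, starting at bases 251, 255 and 286 from the 5′ end. In PLAGL1 it started at bases 152 and 160, in SNRPN at bases 152 and 227, and in MEG3 at base 70. The letters do not occur in the GNAS and H19 windows shown, while another GNAS window, chr20:58839498-58839797, held them at base 23.

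All 9 control regions held methylated DNA. A MeDIP peak lay inside the region proper in 9 of 9 cases. Among all consecutive windows of 4 kb, the median width of the regions, 11.0% held a MeDIP peak, and among windows of 24 kb, the median width with flanks, 29.6% did. With each region's own width and flanks, the share ran from 28.3% to 51.4%. The regions themselves run from 2 to 57 kb, so that shares over 4 kb windows are low for the wider ones. All these windows include the CpG-poor bulk of the genome, so that the shares are a plain reference and not matched ones. The peaks inside the regions were also high in their list: 5 of the 9 regions, those of H19, SNRPN, GNAS, MEST and PLAGL1, held a peak scored 3100, a value reached or passed by 7.38% of all MeDIP peaks and by a peak in 1.34% of 4 kb windows. Exactly this score was shared by 5259 MeDIP peaks, with 241 above it, and it was the highest in each ORCA list, so that peaks scored 3100 cannot be ordered among themselves. In 8 of the 9 regions the highest peak was above the upper quartile of the MeDIP list, and the exception, PEG3, was at 26.4% from the top. For H19, MEG3 and GNAS this is the best of 3, 5 and 3 peaks set against a quartile of single peaks, which favours them. The others held 1 peak each in the region. Inside the regions there were 17 peaks, with a median score of 2085 and a median width of 1878 bp. The flanks held another 17, with a median score of 200.2 and a median width of 910 bp. The median over the whole MeDIP list was a score of 187 and a width of 832 bp.

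**Figure D1:**
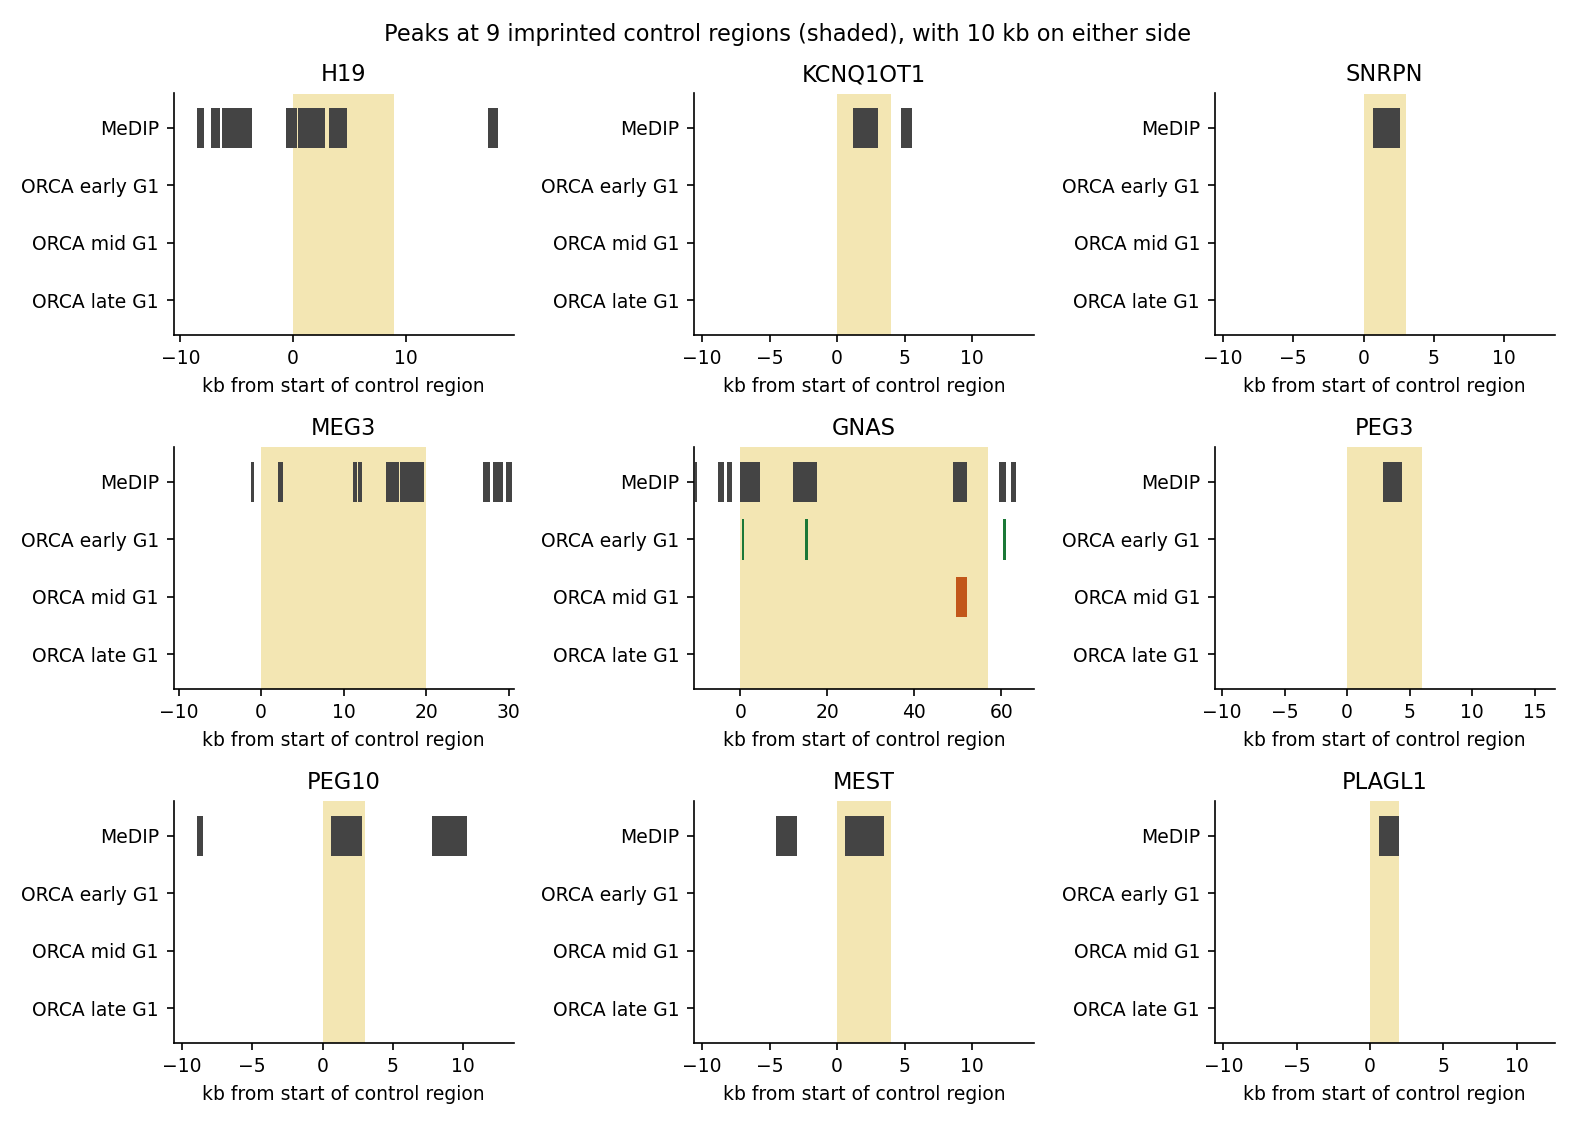
Peaks of the 4 lists at the 9 control regions. The horizontal axis is the distance from the start of the region in kb, each panel has its own range, shading marks the region and each box is a peak drawn to scale. MeDIP boxes lie in all 9 shaded regions, and ORCA boxes, 3 early and 3 mid, are at GNAS alone.

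SNRPN, PEG3 and PLAGL1 had a single MeDIP peak in the whole window. At SNRPN, a gene for a protein of the splicing machinery whose promoter region holds the imprinting centre of the Prader-Willi domain, the peak ran from 25199700 to 25201580 on chromosome 15 and had a score of 3100. It covered 62.7% of the region, and the next MeDIP peaks lay 35.96 kb to the left and 29.5 kb to the right of the region. At PLAGL1, which encodes a zinc finger transcription factor, the peak ran from 144328644 to 144329948 on chromosome 6, had a score of 3100 and covered 65.2% of the region. Its nearest MeDIP neighbours were 230.0 kb and 55.3 kb away. Within 500 kb there were 14 MeDIP peaks around the SNRPN region and 9 around the PLAGL1 region. Over the 8 regions other than GNAS this count ran from 4 to 186, and the usual number in such stretches was not counted. At PEG3, a gene for a zinc finger protein, the peak ran from 57350879 to 57352399 on chromosome 19, had the lowest best score of the 9 regions, 564, and covered 25.3% of the region.

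MEST, a gene for a protein of the hydrolase fold family, and PEG10, a gene derived from a retrotransposon, lie on chromosome 7 and each had a wide peak across the region. The MEST peak ran from 130130588 to 130133442, had a score of 3100 and covered 71.4% of the region. A further peak with the same score, from 130125455 to 130127038, lay 2.96 kb to the left of the region and was the only peak in the flanks of the 9 regions to reach that score. The PEG10 peak ran from 94285593 to 94287825, had a score of 2085 and covered 74.4% of the region. Flank peaks of PEG10 had scores of 111.5 and 1311, the second of them from 94292766 to 94295304. PEG10 had just 4 MeDIP peaks within 500 kb, of which these were 3. At KCNQ1OT1, the start of a long noncoding RNA that silences neighbouring genes in cis, the peak ran from 2720137 to 2722014 on chromosome 11, had a score of 1938 and covered 46.9% of the region. The other KCNQ1OT1 peak, 0.728 kb beyond the region, had a score of 200.2.

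The H19 region was marked at one end only. H19 is a noncoding RNA made from the maternal copy, and the control region beside it holds sites for the insulator protein CTCF, which keep an enhancer from IGF2 on that copy. The strongest peak, with a score of 3100, ran from 2016485 to 2018859 on chromosome 11, over the first 3 kb of the region, where the H19 gene lies. MeDIP peaks covered 91.4% of this part. The remaining 6 kb, taken as the control region proper, held 1 peak from 2019206 to 2020835 with a score of 164, at 53.8% from the top of the list, and 27.2% of it was covered. The last 4165 bp, from 2020836 to 2025000, held no peak. The boundary matters here: the strong peak ends 141 bp before it, and with the element starting 1 kb earlier, which was tried once the values were known, its highest score became 3100. A further peak crossed the outer edge of the region with a score of 235, and 4 flank peaks had scores from 82.8 to 1611.

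MEG3 showed a similar contrast within its 20 kb. MEG3 is a noncoding RNA made from the maternal copy, and its domain is governed by the IG-DMR, a methylated region between DLK1 and MEG3. Over the MEG3 promoter, MeDIP peaks from 101290151 to 101291718 and from 101291845 to 101294748 on chromosome 14 had scores of 1444 and 2231, and 93.1% of this part was covered. The IG-DMR held a single peak from 101277089 to 101277619, with a score of 54.0, among the lowest of the list at 96.1% from the top, and 13.3% of it was covered. Peaks with scores of 101 and 80.5 lay between these elements, and 4 flank peaks had scores from 54.5 to 204.

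GNAS, which encodes the stimulatory G protein alpha subunit and uses several promoters with different imprints, held 3 wide MeDIP peaks on chromosome 20, each with a score of 3100. The first, from 57414010 to 57418510, was 4501 bp wide and covered 90.0% of the NESP55 promoter. The second, from 57426032 to 57431630, was 5599 bp wide and lay on the promoters of the antisense RNA NESPAS and of XLas, a longer form of the same subunit. The third, from 57462984 to 57466192, was 3209 bp wide and covered all of exon A/B, whose methylation is known to govern GNAS expression in kidney. Between the second and the third, 31353 bp held no MeDIP peak. Peaks of at least 3 kb made up 2.91% of the MeDIP list, and 1.46% of all 77 kb windows, the width of the GNAS region with its flanks, held 3 or more MeDIP peaks scored 3100 or higher, limits set after seeing GNAS. The 5 flank peaks of GNAS had scores from 65.4 to 567.

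**Figure D2:**
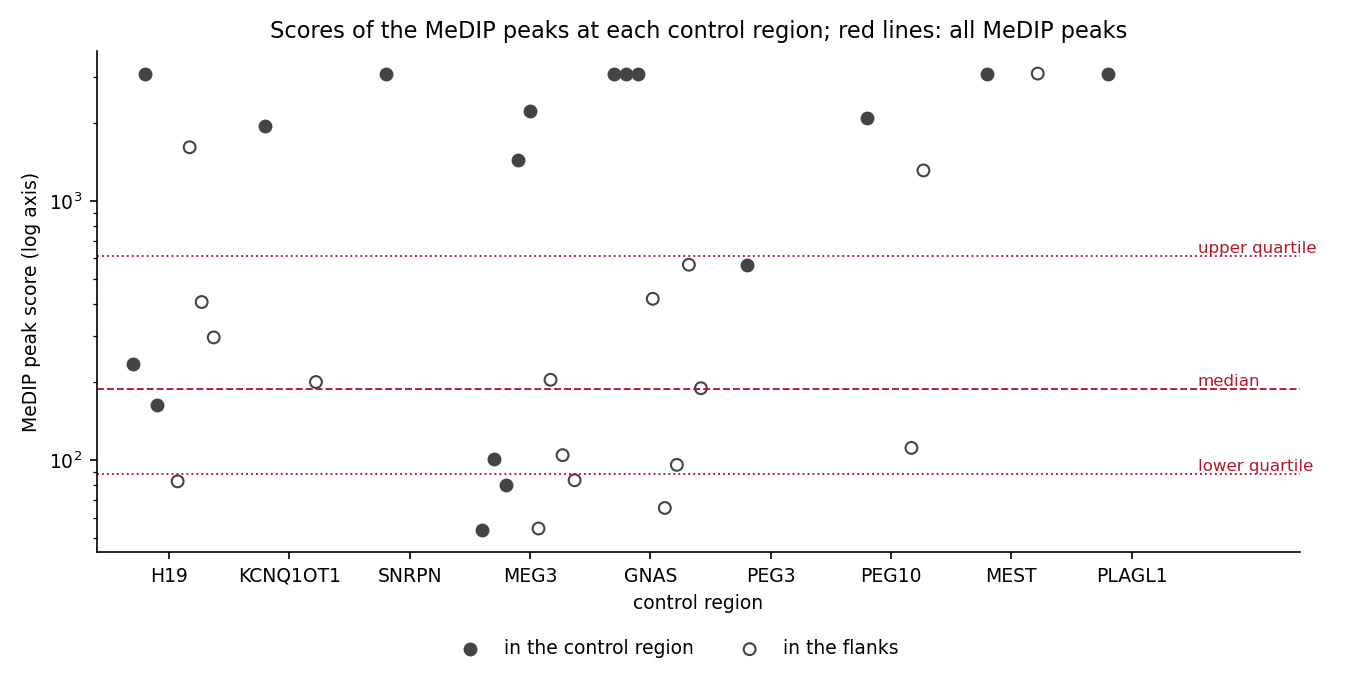
Score of every MeDIP peak at the 9 control regions, on a log axis. Filled points lie in the region and open points in the 10 kb flanks, and red lines mark the quartiles of all MeDIP peaks; PEG3 is the only region whose highest point is under the upper quartile, and the low filled points belong to H19 and MEG3.

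The elements were then set side by side by what is known of their methylation, a grouping made after these values had been seen. Of the elements in the 9 regions, the H19 control region proper and the IG-DMR acquire methylation in sperm. Their highest MeDIP scores were 164 and 54.0, both under the median of the list. The 8 elements methylated in the egg (KCNQ1OT1, SNRPN, PEG3, PEG10, MEST, PLAGL1, the NESPAS and XLas promoters and exon A/B) had highest scores from 564 to 3100, all above that median, and 5 of them reached 3100. The 3 elements methylated after fertilisation, at the H19 gene, the MEG3 promoter and NESP55, had highest scores of 3100, 2231 and 3100. Among 18 other imprinted regions, the region at GPR1-AS and ZDBF2, also methylated in sperm, held MeDIP peaks with scores of 64.99 and 64.4 over 3.95% of its length. The other 14 that are methylated in the egg had highest scores from 554 (WRB) to 3100. Over both lists, 3 of 3 elements methylated in sperm and 0 of 22 methylated in the egg were under the median. With the H19 boundary 1 kb earlier it was 2 of 3. The elements differ in length and in CpG content, and the part of these in the difference was not tested.

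**Figure D3:**
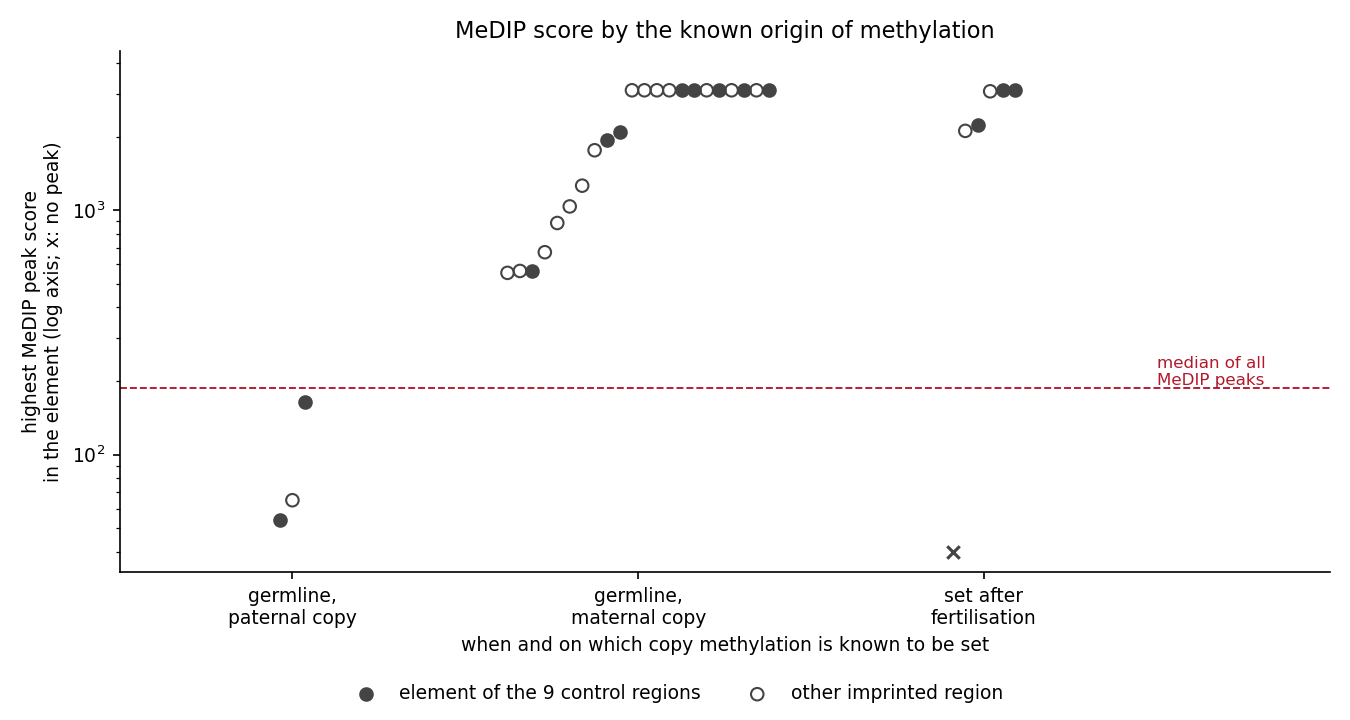
Highest MeDIP peak score in each imprinted element, on a log axis, grouped by the known origin of the methylation; filled points are elements of the 9 control regions, open points other imprinted regions, and the cross is a region with no peak (NDN). The 3 elements methylated in sperm lie under the median of all MeDIP peaks (2 of 3 with the H19 boundary 1 kb earlier), and the 22 methylated in the egg lie above it.

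The other imprinted regions resembled the 9 in the presence of methylated DNA. Of windows as wide as these regions without flanks, 5.645% to 28.9% held a MeDIP peak. A peak scored 3100 or more was held by 1.34% of 4 kb windows. These shares are not matched for CpG content. Of 18 regions, 17 held a MeDIP peak in the region itself, 7 of them with a score of 3100: FAM50B, IGF2R, GRB10, INPP5F, RB1, ZNF331 and NNAT. The exception was NDN, a gene of the Prader-Willi domain, where the nearest MeDIP peak was 37.98 kb away, while MAGEL2 in the same domain had a peak with a score of 2114. Of 5 genes that are controlled by one of the 9 regions, 4 had MeDIP peaks in the gene or within 10 kb. Of windows as wide as these genes with their flanks, 29.6% to 61.5% held one. IGF2, the growth factor gene opposite H19, had 13 peaks in and around it, with a highest score of 3100. CDKN1C, a cell cycle inhibitor gene controlled by the KCNQ1OT1 region, had 5 with a highest score of 2027. DLK1 had 7 with a highest score of 1852. The peaks at SGCE, which shares its promoter region with PEG10, were the 3 already given for PEG10. UBE3A, the ubiquitin ligase gene of the Angelman syndrome, had none, with the nearest 62.7 kb away.

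ORCA peaks were found at 1 of the 9 regions. GNAS held 3 early and 3 mid peaks, and the other 8 regions held none of either stage within 10 kb. No region held a late peak. Over all 24 kb windows, 6.67% held an early, 6.31% a mid and 0.985% a late peak, and over windows of 77 kb the shares were 15.8%, 15.2% and 2.58%. A count of 1 region in 9 is therefore near the share of windows at large. Windows with 3 or more early and 3 or more mid peaks, as at GNAS, made up 1.62% of the 77 kb windows. The 3 mid peaks at GNAS lay 6 and 119 bp apart, so that a stretch of 2596 bp counts as 3 peaks here. That limit of 3, and the limits in the next sentence, were set after seeing GNAS. Among the 478 windows of this width holding 3 or more MeDIP peaks scored 3100 or more, 63.4% held an early or a mid peak. This is a wider condition than the 3 of each stage at GNAS. The share of all 77 kb windows with either stage is not given, and other traits of the 478 windows were not examined.

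The 3 early and 3 mid peaks at GNAS were at different places, 5 of them on a named element and 1 early peak in a flank. Scores in the early list had a median of 63.98, a lower quartile of 55.5 and a lowest value of 50. The early peaks at GNAS lay near that median, apart from the one at NESP55, which was under the lower quartile. The early peak from 57414444 to 57414878 was at the NESP55 promoter, was 435 bp wide and had a score of 53.1, at 85.3% from the top of the early list. The early peak from 57428966 to 57429577, with a score of 67.4 (42.96% from the top), was at the NESPAS and XLas promoters. The third early peak, from 57474515 to 57475193, with a score of 62.4 (53.6% from the top), lay 3.52 kb beyond the region. All 3 mid peaks were at exon A/B: from 57463590 to 57464286 with a score of 95.2, from 57464293 to 57465154 with a score of 101, and from 57465274 to 57466185 with a score of 92.2. They stood at 26.4%, 23.3% and 28.2% from the top of the mid list. They were separated by 6 and 119 bp, spanned 2596 bp in all and covered 76.2% of exon A/B. No early peak overlapped a mid peak, and the early peaks were 48.7, 34.01 and 8.33 kb from the nearest mid peak. In the whole lists 32.6% of early peaks overlapped a mid peak, and 18.4% of those scored no higher than the highest early peak at GNAS. Of the 529 windows of 77 kb with 3 or more early and 3 or more mid peaks, 9.64% likewise had no early peak on a mid peak. With 1 sample per stage, this difference between stages has no replicate check. None of the 6 peaks was among the highest of its list, though the mid peaks ranked higher in theirs than the early ones. When the early and mid lists were cut to their best 1328 peaks, as many as the late list holds, none of the 6 remained. The lack of a late peak therefore cannot be told apart from the shorter list. The late list also bears another MACS number in its name than the early and mid lists, which the labels do not explain, and a difference in how it was called cannot be told apart from the stage either.

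**Figure D4:**
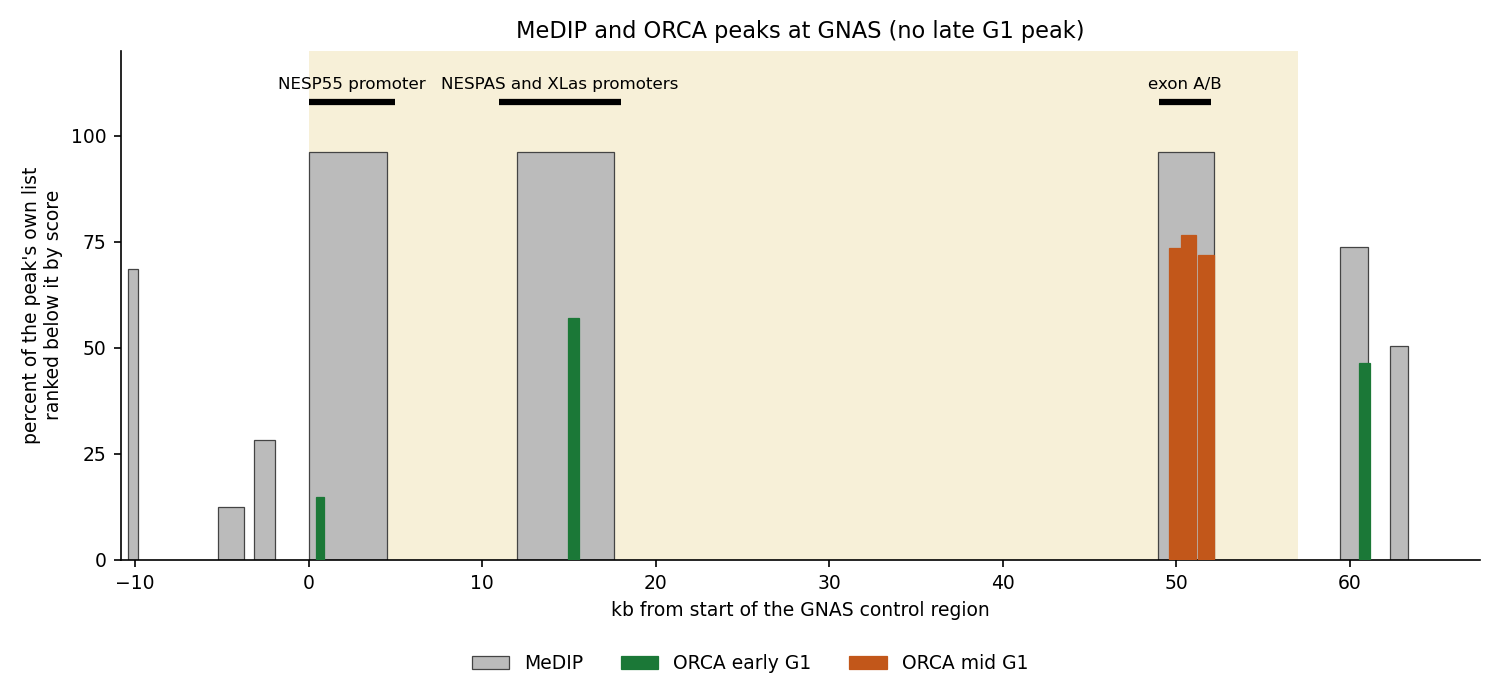
MeDIP, early and mid ORCA peaks at GNAS against the distance from the start of the control region (shaded) in kb. The height is the percent of the peak's own list that ranks below it by score, with shared scores at their mean rank, and black bars mark the named elements; the 3 mid peaks stand under the third tall MeDIP box and the early peaks under the first, the second and a flank box.

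Every ORCA peak at GNAS overlapped a MeDIP peak. The 2 early peaks inside the region and the 3 mid peaks lay wholly inside the 3 wide MeDIP peaks, and the third early peak shared 545 of its 679 bp (80.3%) with a flank MeDIP peak of score 567. In the whole lists, 35.3% of early and 48.6% of mid ORCA peaks overlapped a MeDIP peak. The ORCA peaks at GNAS lie at the same locus, and the 3 mid peaks lie in the same MeDIP peak, so they are not separate cases. The 3 wide MeDIP peaks had ORCA peaks at different stages: the first and second had an early peak and no mid peak, the third had mid peaks and no early peak. Of the 1436 MeDIP peaks at least 3 kb wide and scored 3100 or more, limits chosen after seeing the GNAS peaks, 24.7% overlapped an early peak, 36.4% a mid peak and 39.6% either. The 14 peaks of methylated DNA inside the other 8 regions overlapped no ORCA peak of any stage. Of all MeDIP peaks 4.6% overlapped an early peak, 6.03% a mid peak and 8.04% an ORCA peak of any stage. A count of 0 of 14 is near the share over all MeDIP peaks, which is not a matched one. The 17 peaks inside the 9 regions had a median score of 2085 and a median width of 1878 bp, against 187 and 832 bp over the list. The share for peaks of like score and width was not computed, so whether 0 of 14 is low for such peaks was not tested.

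The distance from the other 8 regions to the nearest ORCA peak was of the order found in windows at large. Over 4 kb windows with no peak of the stage within 10 kb, the nearest early peak was at a median of 308 kb (quartiles 101 and 895 kb) and the nearest mid peak at a median of 304 kb (quartiles 102 and 860 kb). The nearest early peak lay between 100.2 kb (PEG3) and 1.67 Mb (PLAGL1) away, with a median of 484 kb. The nearest mid peak lay between 44.5 kb (MEG3) and 1.07 Mb (PEG10) away, with a median of 251 kb, and MEG3 and SNRPN, at 55.97 kb, were the only ones with a mid peak within 100 kb. These mid peaks were weak, with scores of 53.5 and 52.1. Late peaks were farther, from 412 kb (PEG3) to 20.5 Mb (MEST), in a list with far fewer peaks, where the median over windows was 2.87 Mb. GNAS lay in a neighbourhood with more ORCA peaks than the other 8: 12 early, 15 mid and 1 late peak lay within 500 kb of it, its own included. Around each of the other 8 there were 0 to 2 early, 0 to 3 mid and 0 or 1 late peak. The usual number in stretches of this width was not counted. These values therefore do not tell whether GNAS is high or the other 8 are low against the genome at large. The GNAS stretch is also the widest. Methylated DNA was not scarce around all of the other 8: H19 had 186, KCNQ1OT1 166 and MEG3 107 MeDIP peaks within 500 kb, more than the 83 at GNAS, with 1 or no ORCA peak per stage. The neighbourhoods of H19 and KCNQ1OT1 overlap.

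**Figure D5:**
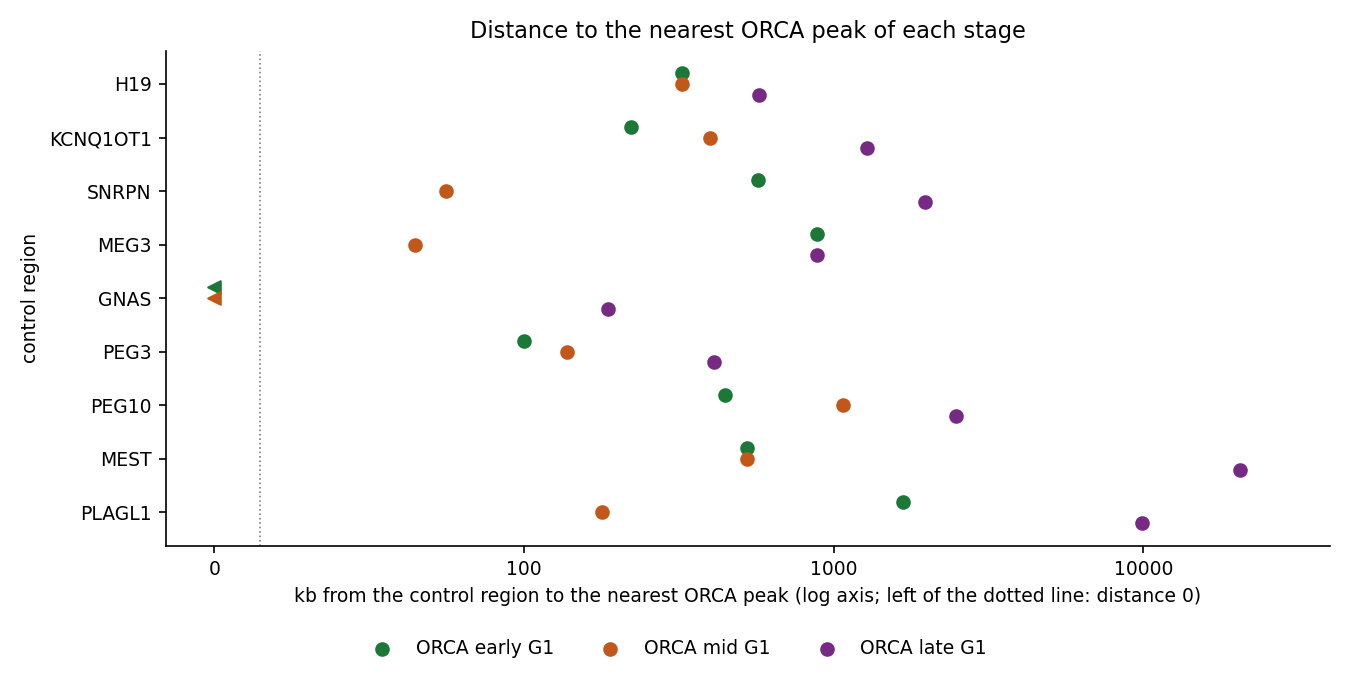
Distance in kb from each control region to the nearest ORCA peak of each stage, on a log axis, with a distance of 0 drawn left of the dotted line. GNAS has early and mid peaks at a distance of 0, and the other 8 regions have their nearest peak from 44.5 kb outward.

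At the other imprinted regions ORCA peaks were about as frequent as in windows at large. Of 18, none had an early or a late peak within 10 kb and 1 had a mid peak: SNU13, where a peak from 42073854 to 42074203 on chromosome 22, with a score of 56.9, lay 2.80 kb from the region and overlapped no MeDIP peak. Over windows of the same widths, 5.98% to 10.4% held an early, 5.68% to 9.85% a mid and 0.887% to 1.59% a late peak. None of the 5 controlled genes had an ORCA peak of any stage within 10 kb, where 6.67% to 21.8% of windows as wide held an early and 6.31% to 21.2% a mid peak. A count of 0 of 5 is near these shares. No other region thus shared the pattern of GNAS, with early, mid and MeDIP peaks, and NDN and UBE3A had no peak of any list. The choice of 10 kb fell between MeDIP peaks 9.82 kb from GNAS, with a score of 419, and 10.3 kb from H19, with a score of 53.6. Among ORCA peaks it fell between early peaks of GNAS 3.52 kb and 19.9 kb from the region, with scores of 62.4 and 71.6.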

How the data were processed

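Per the submitters' processing notes, the tools were Trimmomatic and Bowtie 0.12.7 and the build was hg19 (GRCh37). The authors deposited 1 peak list for each immunoprecipitated sample. Peak names begin with MACS, with another MACS number in the name of the late list than in those of the early and mid lists. No source used here gives the caller's version, settings or control. The authors' deposited score per peak served only to order peaks within a list. Starts were counted from 0 and are printed from 1. Only chromosomes 1 to 22 and X were kept. Of the ORCA lists this kept 10666 of 10740 peaks in early, 10341 of 10382 in mid and 1328 of 1347 in late G1. The MeDIP list kept 74497 of 75555. The members and lists were chosen with earlier results of these data known. Parts of H19, MEG3 and GNAS, the 18 other regions and the 5 controlled genes were placed to the nearest kb from general knowledge of hg19, with no annotation of that build to check them. Reference shares came from consecutive windows between the first and last peak on a chromosome, outside stretches of over 1 Mb with no peak. Every region, every peak inside one and every ORCA peak was named by rule. No test was run, since each group had 1 sample. Alternatives were other flanks, the peaks above the median rank, the widest 5% of peaks left out, lists of equal length and other overlaps. The counting was checked on simulated lists. Python 3.11.15, numpy 2.4.6, pandas 2.3.3 and matplotlib 3.10.9 were used.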

Additional observations from a re-analysis of the deposited data

How the results depend on the processing

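All 9 regions held a MeDIP peak under each alternative run for this count, and no region held a late ORCA peak under any of them. With no flank, 17 MeDIP peaks were counted in place of 34. With flanks of 50 kb, 85 MeDIP and 5 mid ORCA peaks were counted, and 2 regions, GNAS and MEG3, had a mid peak. Above the median rank of each list, 1 of the 3 early peaks at GNAS was left. With the early and mid lists at the length of the late list, 0 regions had an early peak, 0 a mid peak and 0 an ORCA peak overlapping a MeDIP peak, and 0 early and 0 mid peaks were counted, by construction from the lower scores. The highest MeDIP score in the H19 control region proper became 3100 with its boundary 1 kb earlier. The other 51 values were within 1.5 times the main ones. Read depth and the calling of the lists limit all counts, and no replicate could be left out.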
